A study of Mus musculus with 8 samples.

Results

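The genes that carry cells through the cell cycle were examined in whole embryonic mouse stomach. The set holds 40 genes chosen by name: 5 that admit cells to the cycle from G1, 16 of DNA replication and its preparation, and 19 of G2 and mitosis. They correspond to 41 loci of the 26747 in the deposited table, because Pcna is listed at a pair of loci, and all 41 were among the 14574 loci with enough fragments to be tested. Messenger RNA was profiled at E13.5, in mid-gestation, in 4 libraries of Nkx3.2Cre;R26-YAP5SA stomachs, called YAP5SA here, and 4 wild type libraries. In YAP5SA stomachs the Nkx3-2 driver directs Cre to mesenchyme, and Cre turns on, from the Rosa26 locus, a YAP protein that Hippo kinases cannot switch off. The study asked how gene expression differs when YAP is active in this tissue. A group with Cre but without the YAP5SA allele was not analysed here, so a contribution of the driver and one of YAP5SA cannot be told apart. The libraries are of whole stomach, in which epithelium, nerves, vessels and blood cells lie beside the mesenchyme. The labels do not say whether each library came from 1 embryo or a pool, so a p-value here reflects only how far these libraries spread, which may be partly technical.

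Cells enter the cycle when D-type cyclins, bound to the kinases CDK4 or CDK6, phosphorylate the retinoblastoma protein and release E2F transcription factors. E2F then raises genes for DNA replication, among them the MCM helicase, the E-type cyclins and the enzymes that make nucleotides. Later, B-MYB and FOXM1 with the MuvB complex raise the genes of mitosis through promoter elements called CHR, often beside CCAAT boxes. YAP acts through TEAD factors, and active YAP is widely used to drive proliferation in developing organs.

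The YAP5SA libraries held 7152515 to 8353237 fragments in named loci and the wild type libraries 6204927 to 6783550. Of all tested loci, 2757 (18.9%) differed between the genotypes at an adjusted p under 0.05, with 1321 (9.06%) higher and 1436 (9.85%) lower in YAP5SA. The median log2 fold change over all tested loci, YAP5SA minus wild type, was −0.01. Markers of stomach mesenchyme (Barx1, Nkx3-2, Pdgfra, Col1a1 and Col3a1) were present in every library, with a summed level of 1493 to 1728 CPM (fragment counts scaled to library size) in YAP5SA and 1764 to 1849 CPM in wild type, and 1 of these 5 fell (Col3a1); with replicate numbers as a block Pdgfra fell too (−0.30, adjusted p = 0.016, against 0.12 without it). On the other marker lists, 4 of 5 smooth muscle genes and 6 of 6 epithelial genes fell. So did 6 of 6 loci of enteric neurons and 4 of 5 loci of enteric glia. In contrast, 5 of 5 macrophage genes and 1 of 5 endothelial genes (Kdr) rose. Of 3 erythroid genes, 0 passed the test by edgeR (1 had an unadjusted p under 0.05).

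Most cell-cycle genes stood at nearly the same level in both genotypes. Of the 41 loci, 3 rose in YAP5SA stomachs (Cdk6, Ccnd1 and Bub1), 1 fell (Cdk4) and 37 did not pass the test, so that 9.76% were past the threshold beside 18.9% of all tested loci. The median log2 fold change of the 41 was 0.02, with a range from −0.16 to 0.53, and 39 of them lay within 0.25 of 0, as did 68.5% of all tested loci. Most of the 41 were densely covered, as described below, and changes were smaller at dense loci in general. In the densest 2 of 10 classes of coverage the median absolute log2 fold change was 0.07 and 0.08, against 0.13 over all tested loci. The 95% intervals of the 37 loci that did not pass ran at most from −0.37 to 0.54, and both of these bounds belong to the sparser Pcna locus. At an unadjusted p under 0.05 by edgeR there were 9 loci. The share of all tested loci at this cut-off is not given, here or for the lists below, and 18.9% passed the stricter adjusted one. Counts at this cut-off therefore do not set the genes apart from other loci. The levels of the genotypes did not overlap at 5 loci (12.2%), against 23.3% of all tested loci. In bulk tissue, fewer cycling cells and less of an RNA per cell cannot be told apart.

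**Figure D1:**
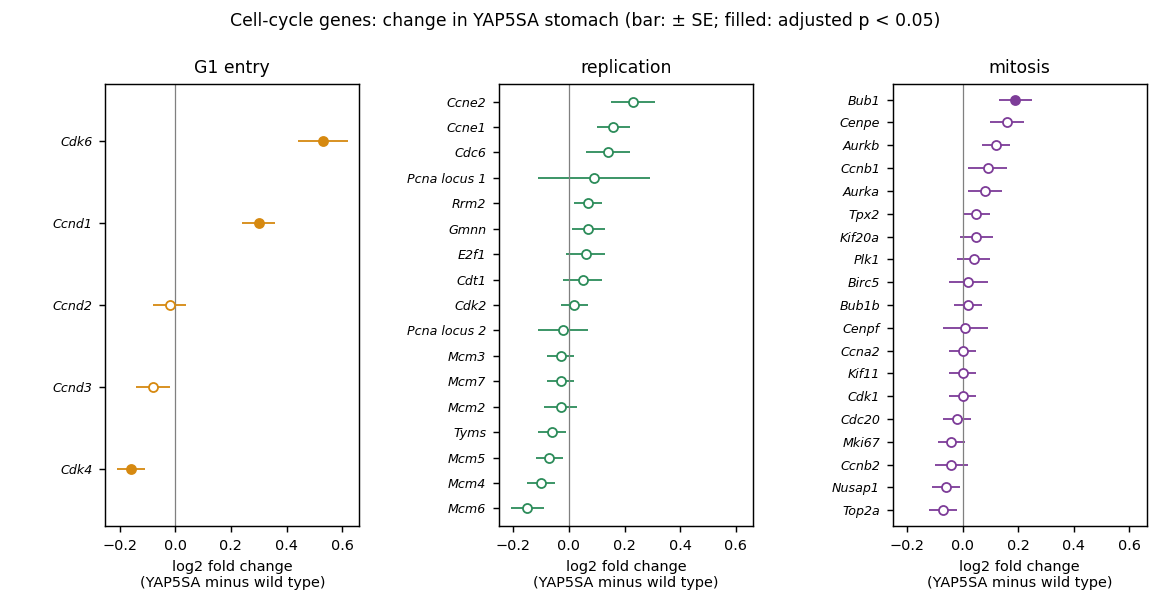
Log2 fold change in CPM (YAP5SA minus wild type, bar ± SE, 4 libraries per genotype) of each cell-cycle gene, in panels for G1 entry, replication and mitosis; filled points passed the test at an adjusted p under 0.05. Cdk6 at 0.53 and Ccnd1 at 0.30 stand apart from the other genes, most of which lie close to 0.

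The groups differed in their spread. The 5 G1 entry genes held 2 of the rises and the only fall among the members (60%), with a median of −0.02 and a range of −0.16 to 0.53. The fall, of Cdk4, held in 3 of 18 alternative analyses. None of the 17 replication loci passed the test (edgeR; 3 had an unadjusted p under 0.05, and leaving out YAP5SA replicate 1 brought Ccne1 and Cdc6 past the threshold); their median was 0.02 and their range −0.15 to 0.23. Of the 19 mitosis genes 1 rose (5.26%), with a median of 0.02 and a range of −0.07 to 0.19. Beside these shares stand 18.9% of all tested loci, and 13.9% and 13.8% in the densest 2 of 10 classes of coverage. The groups are small and were chosen with earlier results of these data known, so their shares are descriptions without a test.

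Most of these loci were among the more densely covered of the table. Coverage, as fragments per exonic base averaged over the 8 libraries, had a median of 0.216 at the cell-cycle loci and 0.0779 at all tested loci. By this measure 29 of the 41 lay in the densest 2 of 10 equal classes of loci, and 39 lay above the median. Within a genotype, fragment counts at dense loci grew less than in proportion to library size. The slope of log count on log library total had a median of 0.47 in the densest class and 1.90 in the sparsest. Its median over the cell-cycle loci was 0.45. These slopes rest on 4 libraries per genotype and are given without an error. They lean on YAP5SA library 1, at 8353237 fragments beside 7152515 to 7540157 in the other YAP5SA libraries. That library also stood low for many cell-cycle genes, so the slopes are not a separate observation. Slopes without it were not tested. Fold changes were also narrower at dense loci, with an SD of 0.18 in the densest class and 0.97 in the sparsest. Fewer loci passed the test there too, at 13.9% and 13.8% in the densest 2 classes, against 18.9% of all tested loci. For the 9.76% of the cell-cycle loci, these 2 classes are the closer comparison in coverage. The YAP5SA libraries were the deeper ones. Raw fragments were higher in every YAP5SA library than in every wild type library at 35 of the 41 loci (85.4%), against 39.7% of all tested loci, and at 0 of the 41 were they lower. A fit with offsets that follow coverage density, added after the data were seen, gave 3 rises and 0 falls, with medians of 0.01 for G1 entry, 0.02 for replication and 0.03 for mitosis. The part that coverage has in the small changes was not tested further.

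**Figure D2:**
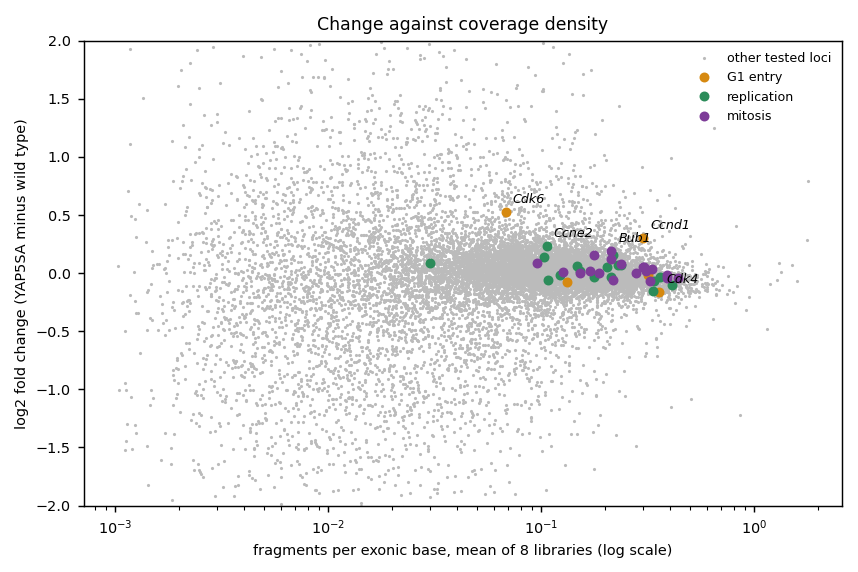
Log2 fold change (YAP5SA minus wild type) against fragments per exonic base (mean of 8 libraries, log axis) for tested loci with a known exon length, in grey, and the cell-cycle loci in colour; 179 of 13276 loci lie outside the axes and are not drawn. The cell-cycle loci sit in the dense, narrow right side of the cloud, and Cdk6, at 0.0680 fragments per base, lies to the left of most of them.

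Promoter sequence was searched for the elements named above, because they set apart the replication and the mitosis genes. RefSeq promoters of GRCm38.p6 (the mm10 assembly), from 250 bases before to 50 bases after a transcript start, were given for 31 of the 40 genes (33 promoters). Mcm4, Ccne2, Gmnn, Ccna2, Aurkb, Kif20a, Tpx2, Ccnd1 and Ccnd2 had no entry. E2F words were the letters TTCCCGC, the letters TTCGCGC and the letters TTGGCGC. One of them, on either strand, occurred in 8 of 14 replication promoters (57.1%), 3 of 15 mitosis promoters (20%) and 0 of 4 G1 entry promoters, against 8.07% of all 32851 promoters in the table. A CHR word (TTTGAA or TTTAAA, either strand) occurred in 4 of 14 replication promoters (28.6%), 13 of 15 mitosis promoters (86.7%) and 0 of 4 G1 entry promoters, against 27.6% of all. CCAAT on either strand was present in 64.3% of replication, 86.7% of mitosis and 25% of G1 entry promoters, against 37.4% of all. The TEAD word GGAATG, on either strand, was present in 1 of 14, 1 of 15 and 1 of 4, against 14.7% of all. Such a match describes the letters and does not show that a factor binds there, and a word that is missing says only that these letters are not in the window.

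The G1 entry genes gave the clearest differences. Cdk6, a kinase partner of the D-type cyclins (chromosome 5, 3289873 to 3531009, mm10), rose 1.45-fold in YAP5SA stomachs. It stood at 185, 140, 152 and 147 CPM in YAP5SA libraries 1 to 4, against 93.3, 111, 112 and 116 CPM in wild type libraries 1 to 4. All YAP5SA libraries lay above all wild type libraries, with YAP5SA library 1 the highest and wild type library 1 the lowest. The log2 fold change was 0.53 ± 0.09 (SE, n = 4 per genotype, adjusted p = 0.0034 by edgeR's quasi-likelihood test with Benjamini-Hochberg adjustment). Cdk6 was past the threshold in all 18 alternative analyses, at log2 fold changes of 0.45 to 0.60. Within a genotype its counts followed library size with a slope of 2.61, the steepest of the 41 loci, and YAP5SA library 1 was the deepest of the 8 and wild type library 1 the shallowest; with offsets that follow coverage density the log2 fold change was 0.51 (adjusted p = 0.0031). The part of depth in this difference was not tested further. The 250 bases before its RefSeq start at chr5:3343643-3343892 (plus strand) are shown because this gene changed most, and they contain none of the 4 kinds of word searched, so no letters are in capitals.
Cdk6: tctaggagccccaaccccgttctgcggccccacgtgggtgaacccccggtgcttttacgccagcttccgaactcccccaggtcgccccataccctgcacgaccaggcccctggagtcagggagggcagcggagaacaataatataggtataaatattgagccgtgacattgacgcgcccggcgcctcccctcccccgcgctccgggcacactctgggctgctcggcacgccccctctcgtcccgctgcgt

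Ccnd1 encodes cyclin D1 (chromosome 7, 144915169 to 144940611, mm10; in the table its locus is joined with the microRNA gene Mir3962, so fragments of both are counted together). It rose 1.23-fold, with 196, 234, 231 and 219 CPM in YAP5SA libraries 1 to 4, against 183, 189, 170 and 172 CPM in the wild type libraries. The genotypes did not overlap, and the lowest YAP5SA library was number 1, which was the highest for Cdk6. The log2 fold change was 0.30 ± 0.06 (SE, adjusted p = 0.0083 by edgeR), and it stayed past the threshold in all 18 alternatives, between 0.28 and 0.36.

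Cdk4, the other kinase partner of the D-type cyclins (chromosome 10, 127062454 to 127071101, mm10), moved the opposite way in CPM. It stood at 147, 161, 158 and 157 CPM in the YAP5SA libraries, against 179, 170, 164 and 182 CPM in wild type, so that every YAP5SA library lay below every wild type library. Cdk4 fell by 0.16 on the log2 scale (−0.16 ± 0.05, SE, adjusted p = 0.045 by edgeR). The call held in 3 of 18 alternatives: it was lost without any single library except wild type replicate 3 (adjusted p up to 0.13), with the replicate block (0.07) and with offsets that follow coverage density (−0.12, 0.078), and it held with DESeq2 (0.04) and upper-quartile factors. Before scaling to library size, its raw fragments were higher in the YAP5SA libraries, which were the deeper ones. They were 1227, 1164, 1168 and 1170 in the YAP5SA libraries and 1129, 1155, 1097 and 1151 in the wild type libraries.

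The other D-type cyclins did not pass the test. Ccnd2, the most abundant of them in CPM, averaged 421 ± 19.7 CPM in YAP5SA and 427 ± 21 CPM in wild type (SD, n = 4; −0.02, adjusted p = 0.83 by edgeR). Ccnd3 averaged 160 ± 9 CPM in YAP5SA and 169 ± 9.58 CPM in wild type (−0.08, adjusted p = 0.38). Per length, Ccnd1 made up 27.0%, 27.9%, 27.5% and 27.3% of the summed D-type cyclin FPKM (fragments scaled to exon length and library size) in the YAP5SA libraries, against 23.2%, 23.9%, 22.3% and 21.8% in wild type. The sum itself was 225 ± 15.8 FPKM in YAP5SA and 216 ± 4.05 FPKM in wild type (SD, n = 4). Cdk6 remained the minor kinase, at 13.3%, 8.9%, 9.8% and 9.9% of the FPKM of Cdk4 and Cdk6 together in YAP5SA, against 5.7%, 7.0%, 7.0% and 7.0% in wild type. Both shares lay apart between the genotypes in every library; they are descriptions without a test.

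**Figure D3:**
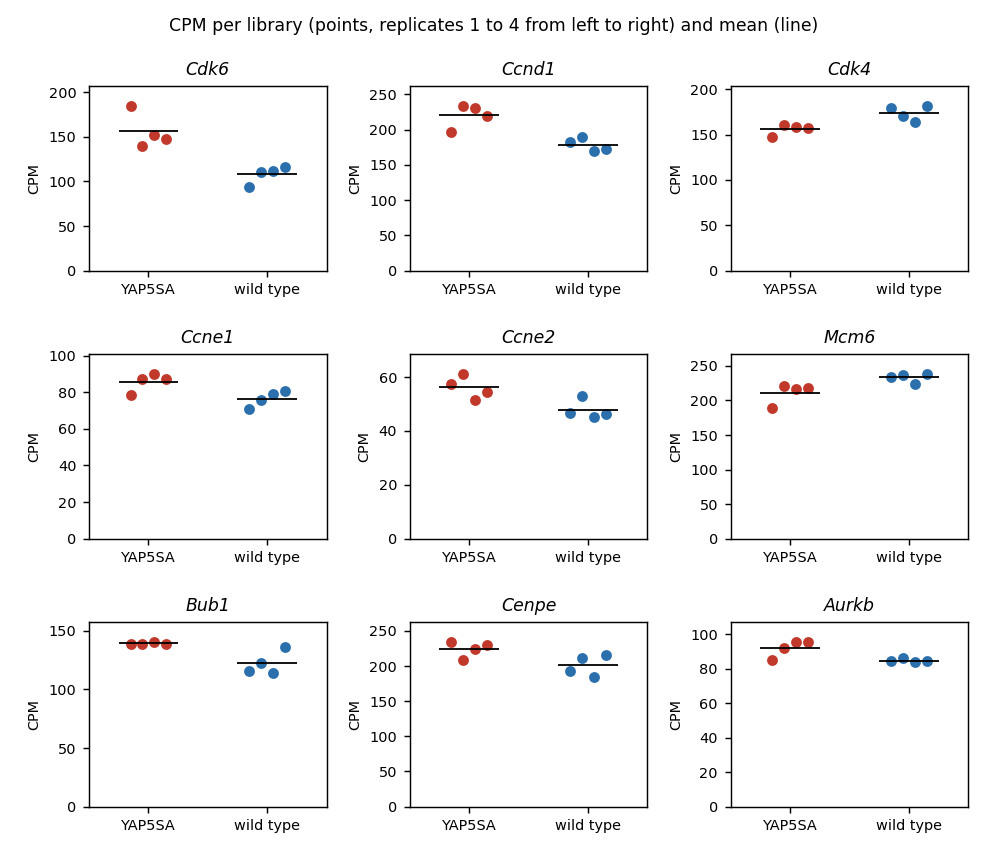
CPM in each library (points, replicates 1 to 4 from left to right) and the mean (line) for 9 cell-cycle genes, YAP5SA left and wild type right, with each axis starting at 0. Cdk6, Ccnd1 and Bub1 lie higher and Cdk4 and Mcm6 lower in all YAP5SA libraries, while the libraries of Ccne1, Ccne2, Cenpe and Aurkb overlap.

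The replication genes were led by the E-type cyclins, which activate CDK2 at the start of S phase, although neither passed the test. Ccne2 (chromosome 4, 11190884 to 11254259, mm10) stood at 57.3, 61.3, 51.4 and 54.5 CPM in the YAP5SA libraries, against 46.6, 52.8, 45.3 and 46.1 CPM in wild type. The genotypes overlap because wild type library 2 stands above the other wild type libraries. Its log2 fold change was 0.23 ± 0.08 (SE, adjusted p = 0.056 by edgeR); it was past the threshold when replicate numbers were used as a block (0.028) and when wild type replicate 2 was left out (0.30, adjusted p = 0.033). Ccne1 (chromosome 7, 38097984 to 38107490, mm10) stood at 78.5, 87.3, 90.3 and 87.3 CPM in the YAP5SA libraries, against 70.7, 75.7, 79.0 and 80.9 CPM in wild type. Only YAP5SA library 1 lay within the wild type range. The log2 fold change was 0.16 ± 0.06 (SE, adjusted p = 0.097), and without YAP5SA replicate 1 it was 0.21 (adjusted p = 0.027). Per length, the 2 E-type cyclins summed to 63.7, 70.1, 68.4 and 67.4 FPKM in the YAP5SA libraries, against 55.3, 60.1, 59.3 and 60.8 FPKM in wild type, so the sums did not overlap; cyclin E2 made up 28.4 ± 2.3% of the sum in YAP5SA and 27.4 ± 2.0% in wild type (SD, n = 4).

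None of the genes of the replicative helicase passed the test. The MCM2-7 helicase unwinds DNA ahead of the polymerases, and its 6 subunit genes had log2 fold changes of −0.15 to −0.03, of which Mcm6 alone had an unadjusted p under 0.05 by edgeR. Without YAP5SA replicate 1, Mcm2, Mcm3 and Mcm7 were at 0.02, 0.03 and 0.01, and with offsets that follow coverage density Mcm3 was at 0.02. Mcm6 (chromosome 1, 128331591 to 128359656, mm10) was the lowest, at 189, 221, 217 and 218 CPM in the YAP5SA libraries, against 234, 237, 224 and 239 CPM in wild type. The genotypes did not overlap, and YAP5SA library 1 stood well below the others. The log2 fold change was −0.15 ± 0.06 (SE, unadjusted p = 0.026, adjusted p = 0.10 by edgeR), −0.11 with offsets that follow coverage density and −0.09 without YAP5SA replicate 1. Mcm7, whose locus is joined with Mir25 and Mir93, averaged 109 ± 4.66 CPM in YAP5SA and 111 ± 3.23 CPM in wild type. The promoter of Mcm6 at chr1:128359706-128359955 (minus strand, read 5′ to 3′ toward the gene) shows the replication type, with E2F words in capitals. In each capital run TTGGCGC overlaps TTCGCGC of the other strand, so the run holds a word on both strands. The window also holds 2 CCAAT words, read as attgg and left in lower case here.
Mcm6: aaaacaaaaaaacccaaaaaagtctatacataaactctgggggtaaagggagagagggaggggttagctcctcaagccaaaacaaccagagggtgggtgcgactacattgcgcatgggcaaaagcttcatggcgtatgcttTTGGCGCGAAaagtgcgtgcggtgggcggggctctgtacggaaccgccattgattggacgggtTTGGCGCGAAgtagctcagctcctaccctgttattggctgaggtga

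Factors that license origins for the helicase differed little. Cdc6, which helps load MCM2-7, stood at 69.0, 81.4, 79.7 and 88.8 CPM in the YAP5SA libraries, against 70.4, 70.0, 72.1 and 77.4 CPM in wild type. Library 1 of YAP5SA lay below every wild type library and the other YAP5SA libraries above them. The log2 fold change was 0.14 ± 0.08 (SE, adjusted p = 0.26 by edgeR), and 0.21 without YAP5SA replicate 1 (adjusted p = 0.038). Its partner Cdt1 averaged 92.0 ± 7.10 CPM in YAP5SA and 89.1 ± 5.22 CPM in wild type. Gmnn, encoding the Cdt1 inhibitor geminin, averaged 48.6 ± 1.24 CPM in YAP5SA and 46.3 ± 1.88 CPM in wild type (SD, n = 4).

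The remaining replication genes lay between −0.06 and 0.09 on the log2 scale. E2f1, the activating transcription factor of this programme, stood at 63.6, 67.4, 68.5 and 68.7 CPM in the YAP5SA libraries, against 72.8, 63.1, 56.8 and 65.4 CPM in wild type, and the genotypes overlapped (0.06 ± 0.07, SE, adjusted p = 0.67 by edgeR). Pcna, the sliding clamp of the polymerases, is listed at 2 loci with the same coordinates on chromosome 2 (132249176 to 132260945, mm10), so the assignment of fragments between them is uncertain. The denser locus stood at 43.8, 43.9, 35.2 and 43.1 CPM in the YAP5SA libraries, against 45.6, 43.4, 38.7 and 40.3 CPM in wild type. The genotypes overlapped at it (−0.02 ± 0.09, SE, adjusted p = 0.94) and at the sparser one (0.09 ± 0.20, adjusted p = 0.82). Of the enzymes that supply nucleotides, Rrm2, a ribonucleotide reductase subunit, was at 0.07 (adjusted p = 0.47) and Tyms, thymidylate synthase, at −0.06 (adjusted p = 0.43). Cdk2, the kinase of cyclins E and A, was at 0.02 (adjusted p = 0.83).

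Among the mitosis genes the rise was in Bub1, a kinase of the spindle checkpoint that acts at kinetochores (chromosome 2, 127800200 to 127831859, mm10). It stood at 139, 139, 141 and 139 CPM in the YAP5SA libraries, against 116, 123, 114 and 136 CPM in wild type. The YAP5SA libraries were nearly identical and lay above all wild type libraries, of which number 4 came close. The log2 fold change was 0.19 ± 0.06 (SE, 1.14-fold, adjusted p = 0.04 by edgeR). The call was lost when any single library other than wild type replicate 4 was left out (adjusted p up to 0.095) and in the FPKM fit without a minimum (0.05); it held with the replicate block (0.043) and in 10 of the 18 alternatives. Its checkpoint partner Bub1b did not pass the test, at 189 ± 8.79 CPM in YAP5SA and 187 ± 4.52 CPM in wild type (SD, n = 4; 0.02, adjusted p = 0.83).

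Next to Bub1 came Cenpe, a kinetochore motor, and Aurkb, the kinase of the chromosomal passenger complex. Cenpe stood at 235, 208, 224 and 230 CPM in the YAP5SA libraries, against 193, 212, 185 and 216 CPM in wild type, with overlap (0.16 ± 0.06, SE, adjusted p = 0.11 by edgeR). Aurkb stood at 84.9, 92.4, 95.5 and 95.9 CPM in the YAP5SA libraries, against 84.8, 86.3, 83.8 and 84.5 CPM in wild type, and YAP5SA library 1 alone reached into the wild type range (0.12 ± 0.05, SE, adjusted p = 0.14). Without YAP5SA replicate 1, Aurkb was at 0.17 (adjusted p = 0.026). Birc5, survivin of the same complex, was at 0.02 (adjusted p = 0.87).

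Genes commonly used to count proliferating cells did not separate the genotypes. Mki67, the Ki-67 antigen, stood at 588, 593, 641 and 642 CPM in the YAP5SA libraries, against 594, 638, 651 and 652 CPM in wild type. The ranges overlapped almost fully, and the log2 fold change of −0.04 ± 0.05 (SE, adjusted p = 0.68 by edgeR) had a 95% interval of −0.16 to 0.08. Top2a, the topoisomerase that untangles chromosomes, stood at 385, 406, 405 and 419 CPM in YAP5SA, against 423, 426, 407 and 439 CPM in wild type (−0.07 ± 0.05, SE, adjusted p = 0.38). The kinase of mitotic entry Cdk1 averaged 106 ± 5.87 CPM in YAP5SA and 106 ± 2.95 CPM in wild type, and its partner Ccna2 161 ± 4.21 CPM in YAP5SA and 161 ± 6.96 CPM in wild type (SD, n = 4). Ccnb1 and Ccnb2, the B-type cyclins, were at 0.09 and −0.04, Plk1, a kinase of mitotic entry and exit, at 0.04, Aurka and Tpx2, which build the spindle together, at 0.08 and 0.05, and Cdc20, an activator of the anaphase-promoting complex, at −0.02. The motors Kif11 and Kif20a were at 0.00 and 0.05, the kinetochore protein Cenpf at 0.01 and the spindle protein Nusap1 at −0.06. None of these passed the test by edgeR.

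The promoters of this group are shown for Ccnb2 and Cdk1, which hold CHR and CCAAT words, and for Bub1, the gene that rose. Capitals mark CHR and CCAAT words on either strand (ATTGG is CCAAT of the other strand). Ccnb2 lies at chr9:70421555-70421804, Cdk1 at chr10:69352913-69353162 and Bub1 at chr2:127831860-127832109, all on the minus strand and read toward the gene. Ccnb2 and Cdk1 have both kinds of word, whereas the Bub1 window has CCAAT words alone. The Cdk1 window also holds TTGGCGC and TTCGCGC, left in lower case here.
Ccnb2: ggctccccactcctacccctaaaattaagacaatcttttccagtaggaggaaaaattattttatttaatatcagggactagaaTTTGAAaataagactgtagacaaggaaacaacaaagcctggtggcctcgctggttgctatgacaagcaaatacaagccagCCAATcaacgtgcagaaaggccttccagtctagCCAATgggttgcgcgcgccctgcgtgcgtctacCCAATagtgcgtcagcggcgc
Cdk1: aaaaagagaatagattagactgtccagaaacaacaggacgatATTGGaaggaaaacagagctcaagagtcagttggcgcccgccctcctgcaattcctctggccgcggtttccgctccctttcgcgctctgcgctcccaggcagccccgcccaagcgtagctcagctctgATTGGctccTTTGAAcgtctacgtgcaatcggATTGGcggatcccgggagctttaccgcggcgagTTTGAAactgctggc
Bub1: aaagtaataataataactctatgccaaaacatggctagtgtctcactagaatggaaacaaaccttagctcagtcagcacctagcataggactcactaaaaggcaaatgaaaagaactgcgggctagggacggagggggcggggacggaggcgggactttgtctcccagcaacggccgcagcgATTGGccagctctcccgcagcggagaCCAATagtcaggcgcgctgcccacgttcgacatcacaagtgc

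Compared per length, the G1 entry genes spanned the whole scale. Cdk4 was the highest of the 41 loci in both genotypes, at 116 ± 8.35 FPKM in YAP5SA and 128 ± 3.30 FPKM in wild type (SD, n = 4), and Ccnd3 followed at 88.8 ± 7.49 FPKM in YAP5SA and 91.4 ± 1.79 FPKM in wild type. Cdk6 was the lowest apart from the sparser Pcna locus, at 13.4 ± 1.69 FPKM in YAP5SA and 9.14 ± 0.849 FPKM in wild type. Cyclin D1 stood in 13th place in YAP5SA, at 61.7 ± 5.08 FPKM, and in 21st place in wild type, at 49.2 ± 2.09 FPKM. The highest replication gene was Mcm6, at 77.1 ± 5.19 FPKM in YAP5SA and 84.6 ± 2.43 FPKM in wild type, and Top2a led the mitosis genes in wild type, at 76.8 ± 2.47 FPKM in YAP5SA and 80.2 ± 2.44 FPKM in wild type. The median FPKM of the replication loci was 48.3 in YAP5SA and 44.7 in wild type, and that of the mitosis genes was 51.7 in YAP5SA and 47.4 in wild type. These medians fall on different genes in YAP5SA and in wild type, so they do not measure a change. The median log2 fold change was 0.02 for both groups. Most of the order was loose: in wild type, 31 of the 40 pairs of neighbours had overlapping library values.

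**Figure D4:**
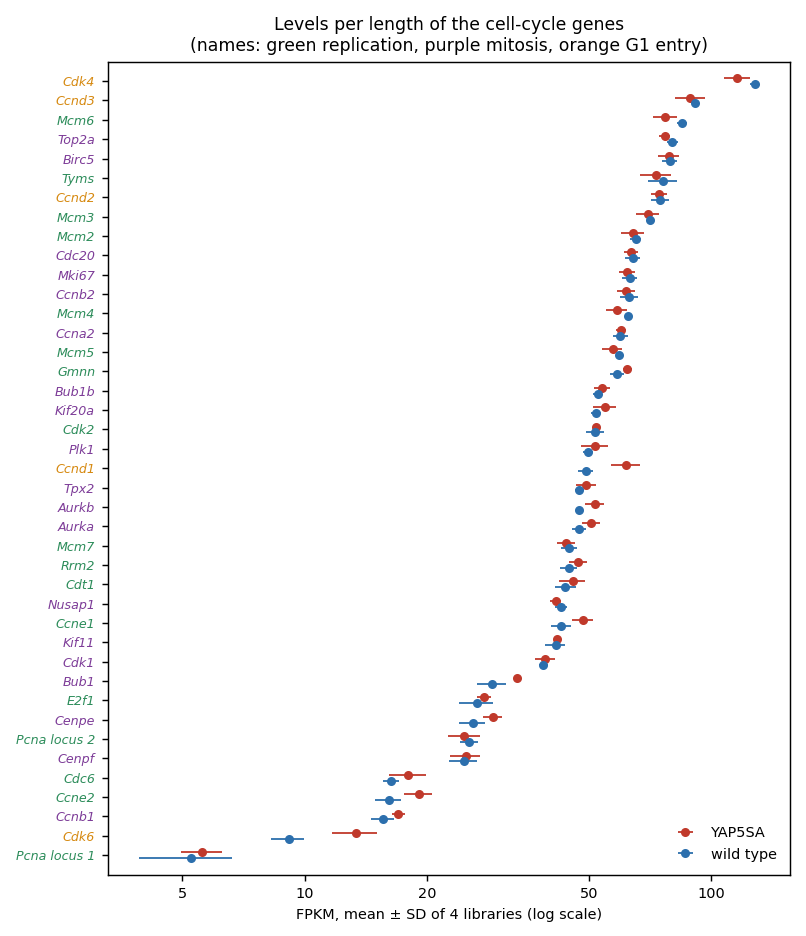
FPKM (mean ± SD of 4 libraries, log axis) of the 41 cell-cycle loci in the order of their wild type level, YAP5SA above wild type in each row. Cdk4 is highest and Cdk6 and the sparser Pcna locus are lowest, and the genotypes stand apart most clearly for Cdk6 and Ccnd1.

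YAP5SA library 1, the deepest, stood low for many of these genes. The median position of the 17 replication loci, relative to the mean of the 8 libraries on the log2 CPM scale, was −0.11, 0.03, 0.03 and 0.06 in YAP5SA libraries 1 to 4, against 0.01, 0.00, −0.04 and 0.03 in the wild type libraries. The mitosis genes were at −0.07, 0.00, 0.04 and 0.06 in YAP5SA, against −0.01, −0.01, −0.06 and 0.06 in wild type. For both groups YAP5SA library 1 was the lowest of the 8, and the other YAP5SA libraries lay between 0.00 and 0.06. Without it, 5 members were higher (Cdk6, Ccnd1, Ccne1, Cdc6 and Aurkb) and 0 lower, against 3 and 1 with it. What sets this library apart was not tested.

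**Figure D5:**
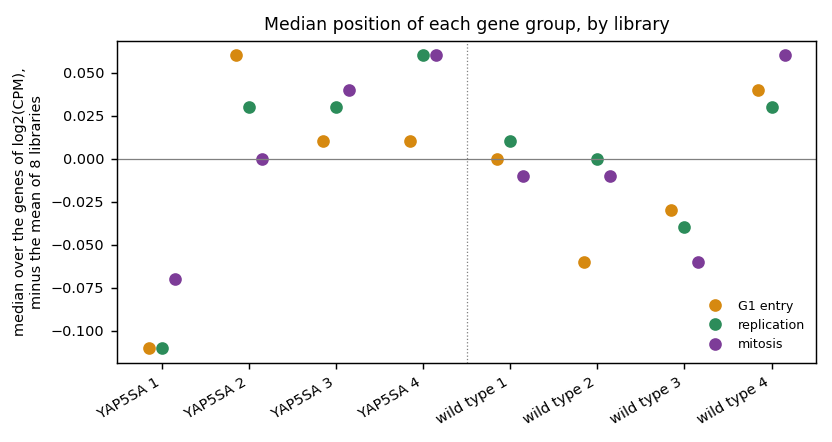
Median over each group of genes of log2 CPM minus the mean of the 8 libraries, for each library, YAP5SA at left and wild type at right. YAP5SA library 1 is lowest, at −0.11 for replication and −0.07 for mitosis, and the remaining libraries lie between −0.06 and 0.06.

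A wider set of 130 genes of the same machinery was examined in 4 lists. Of 45 further replication genes, 3 rose and 0 fell by edgeR (6.67%, beside 18.9% of all tested loci; 5 at an unadjusted p under 0.05 in either direction), with a median of 0.01. They were Orc1 and Orc2, subunits of the origin recognition complex, and Dbf4, the activator of the CDC7 kinase that fires origins. Orc1 averaged 47.6 ± 2.58 CPM in YAP5SA and 37.4 ± 3.19 CPM in wild type (0.35 ± 0.08, SE, adjusted p = 0.012 by edgeR). Dbf4 averaged 95.5 ± 3.45 CPM in YAP5SA and 81.1 ± 3.23 CPM in wild type (0.24 ± 0.05, adjusted p = 0.0085). Both held in all 18 alternatives, whereas Orc2 (0.22 ± 0.07, adjusted p = 0.045) held in 8. It was lost with the replicate block (0.05), with offsets that follow coverage density (0.053), in the 3 FPKM fits, and without YAP5SA replicate 1 or 2 or wild type replicate 1, 2 or 3.

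Of 50 loci of 49 further mitosis genes, 3 rose and 0 fell by edgeR (6%, beside 18.9% of all tested loci; 7 at an unadjusted p under 0.05 in either direction), with a median of 0.06. Ect2, which activates RhoA for cytokinesis, averaged 131 ± 3.22 CPM in YAP5SA and 108 ± 3.53 CPM in wild type (0.28 ± 0.04, SE, adjusted p = 0.0018 by edgeR), and held in all 18 alternatives. Anln, anillin of the contractile ring (0.14 ± 0.04, adjusted p = 0.04), held in 12 and was lost without YAP5SA replicate 3 or 4 or wild type replicate 1, 2 or 3. Dlgap5, a spindle protein (0.16 ± 0.05, adjusted p = 0.042), held in 11 and was lost with upper-quartile factors and without YAP5SA replicate 2, 3 or 4 or wild type replicate 2 or 3. The replicate block put these last 2 at 0.05 and 0.059.

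Of 29 regulators of the cycle, 3 rose and 2 fell by edgeR (17.2%, beside 18.9% of all tested loci; 10 at an unadjusted p under 0.05), with a median of 0.04. E2f7, an E2F family member that represses E2F target genes, stood at 108, 95.9, 107 and 112 CPM in the YAP5SA libraries, against 64.8, 69.7, 70.5 and 73.3 CPM in wild type. All YAP5SA libraries lay well above wild type. Its log2 fold change of 0.60 ± 0.06 (SE, adjusted p = 0.00018 by edgeR) lay above the 0.53 of Cdk6 and held in all 18 alternatives. Cdk7, the CDK-activating kinase, averaged 167 ± 6.13 CPM in YAP5SA and 145 ± 7.03 CPM in wild type (0.21 ± 0.05, adjusted p = 0.014; all 18). Myc averaged 84.0 ± 4.42 CPM in YAP5SA and 70.2 ± 5.38 CPM in wild type (0.26 ± 0.07, adjusted p = 0.02), and was lost without YAP5SA replicate 3 (0.058) or wild type replicate 4 (0.054). E2f2, an activating E2F, averaged 32.9 ± 4.07 CPM in YAP5SA and 41.2 ± 0.481 CPM in wild type (−0.33 ± 0.09, adjusted p = 0.031), and held in 8 of 18, lost in the 3 FPKM fits and without any single library except YAP5SA replicate 4. Rbl1, the retinoblastoma relative p107 (−0.17 ± 0.05, adjusted p = 0.046), held in 4 of 18; it was lost with the replicate block (0.066), RLE factors, DESeq2, no filter and the 3 FPKM fits, and without any single library except YAP5SA replicate 1. Foxm1 and Mybl2, which drive the mitotic programme, were at 0.11 and 0.06 (adjusted p = 0.28 and 0.67).

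Of 7 genes for inhibitors of the cyclin-dependent kinases, 2 rose and 0 fell by edgeR (28.6%, beside 18.9% of all tested loci). At an unadjusted p under 0.05 by edgeR there were 3, in either direction. The 2 that rose were Cdkn2a and Cdkn2b. Cdkn2a encodes a blocker of CDK4 and CDK6 and also ARF, which protects p53 from degradation. Cdkn2a (chromosome 4, 89274473 to 89294619, mm10) had 205, 137, 54 and 14 fragments in YAP5SA libraries 1 to 4, against 0, 0, 1 and 0 fragments in the wild type libraries. All YAP5SA libraries were above wild type (adjusted p = 0.0013 by edgeR); with 1 wild type fragment in all, no fold change is given. Its neighbour Cdkn2b (89306289 to 89311032) stood at 47.2, 34.3, 19.4 and 6.98 CPM in the YAP5SA libraries, against 4.13, 1.32, 0.75 and 1.11 CPM in wild type. The genotypes did not overlap, although the YAP5SA libraries spanned a wide range for both genes, with library 1 highest and library 4 lowest (3.89 ± 0.64, SE, adjusted p = 0.0023). Cdkn1a, Cdkn1b, Cdkn1c, Cdkn2c and Cdkn2d were between −0.25 and 0.04 and did not pass the test.

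Marker lists other than that of stomach mesenchyme also differed between the genotypes in summed level. The summed level of the smooth muscle list was 378 to 580 CPM in YAP5SA and 954 to 1008 CPM in wild type, that of the epithelial list 373 to 492 CPM in YAP5SA and 599 to 748 CPM in wild type, and that of the enteric neuron list 167 to 230 CPM in YAP5SA and 386 to 448 CPM in wild type. The glial list was at 103 to 164 CPM in YAP5SA and 216 to 253 CPM in wild type, while the macrophage list was at 239 to 345 CPM in YAP5SA and 147 to 204 CPM in wild type. Endothelial markers were at 553 to 627 CPM in YAP5SA and 466 to 551 CPM in wild type. Of these 5 genes, Kdr alone passed the test by edgeR (log2 fold change 0.62). The log2 fold changes of Pecam1, Cdh5, Tek and Emcn lay between −0.06 and 0.11. Erythroid markers were at 82.6 to 95.7 CPM in YAP5SA and 102 to 117 CPM in wild type. No marker of any list was at 0 over the 8 libraries. The part of these shifts in the levels of the cell-cycle genes was not tested.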

How the data were processed

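Total RNA of frozen stomachs was purified with Trizol, and sequencing libraries were prepared using Illumina's TruSeq RNA reagents, per the labels' protocols. The submitters' processing notes name mm10 as the build and TopHat2 2.0.9, Cuffdiff and Cufflinks 2.2.1 as tools; read filters, duplicates and strand use are not given in the sources used here. The deposited raw fragments per locus and library are estimated counts (10.6% to 11.0% of values per library were not whole), which were rounded. The deposited FPKM values were scaled between libraries by the authors; they gave levels per length and 3 alternatives. Libraries are numbered in the deposited table from 0 within each genotype, and number 0 was taken as replicate 1, an order the labels do not state. Loci without a gene name (3582, 1.85% to 1.97% of fragments) stayed out, and loci that join several genes (591) were kept. Coordinates are 1-based on mm10, and exon lengths came from GENCODE M21.

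The test of counts was that of edgeR 4.0.16 under R 4.3.3 (quasi-likelihood, TMM, filterByExpr with 10 fragments and 15 in total), two-sided, with Benjamini-Hochberg adjustment over 14574 loci and a threshold of 0.05, after a check on simulated data. CPM uses TMM-scaled library sizes. The labels do not say that replicate numbers pair the samples. Deviations of same-numbered libraries correlated at 0.141 to 0.22, and each library correlated best with its own number. The main fit used genotype only, and the replicate block was an alternative. The 18 alternatives were RLE and upper-quartile factors, DESeq2 1.42.0, limma-voom (limma 3.58.1), no filter, the replicate block, limma on log2 FPKM with a pseudocount of 1 or 0.1 and a minimum of 1 FPKM, or no minimum, each library left out, and density-dependent offsets (loess span 0.3), which were chosen after seeing the data.

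The members and all gene lists were chosen with earlier results of these data known. Values per library are given for members past the threshold in any analysis, with an unadjusted p under 0.05, or with the smallest p or highest level of their role, and for E2f1, Mki67 and Pcna; up to 4 genes past the threshold per direction are named from each other list. Other genes in short lists were named after their values were seen.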

Additional observations from a re-analysis of the deposited data

Results flagged for a closer look

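For 10 of 82 sets of 4 libraries of a genotype (41 loci, both genotypes), 1 library lay far from the other 3 by Dixon's criterion, which chance alone exceeds in about 1 of 20. Of these 10, 6 were YAP5SA replicate 1, low each time. It had 186 CPM of Mcm2 beside 213 to 214 CPM in the other YAP5SA libraries, 171 CPM of Mcm3 beside 195 to 197 CPM, 171 CPM of Mcm5 beside 191 to 195 CPM, and 189 CPM of Mcm6 beside 217 to 221 CPM. It also had 173 CPM of Kif20a, a motor of cytokinesis, beside 195 to 198 CPM, and 146 CPM of Ccnd3 beside 163 to 165 CPM. The denser Pcna locus was low in YAP5SA replicate 3, at 35.2 CPM beside 43.1 to 43.9 CPM. In wild type, replicate 2 was high for Ccne2, at 52.8 CPM beside 45.3 to 46.6 CPM, and low for Cdt1, at 81.3 CPM beside 90.9 to 92.1 CPM. Replicate 4 of wild type was high for Rrm2, at 96.3 CPM beside 87.7 to 89.1 CPM.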

How the results depend on the processing

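Of 738 values of single members under an alternative, 688 kept their direction and side of the threshold, 23 were no longer past it, 5 newly passed it and 22, all of members past it in neither analysis, changed sign. With 1 library left out, these ranged over −0.05 to 0.02 for Mcm2, −0.05 to 0.03 for Mcm3, −0.04 to 0.01 for Mcm7, −0.02 to 0.25 for the sparser and −0.05 to 0.06 for the denser Pcna locus, −0.02 to 0.08 for Birc5, −0.04 to 0.01 for Cdc20, −0.03 to 0.08 for Cenpf and −0.03 to 0.02 for Ccnd2. Ccna2 (−0.02 to 0.03), Cdk1 (−0.01 to 0.04) and Kif11 (−0.03 to 0.03), at 0.00 in the main fit, also lay on both sides of 0 then. Cdk1 was at −0.01 with the density-dependent offsets. The density-dependent offsets gave the opposite sign for Mcm3 (0.02), Mki67 (0.02), Ccnb2 (0.02), Cdc20 (0.03) and Ccnd2 (0.01), and the 3 FPKM fits for Birc5 (−0.01 each). Cdk6 and Ccnd1 were past the threshold in all 18. The count of members that fell was 0 under RLE factors, limma-voom, no filter, the replicate block, all 3 FPKM fits and the density-dependent offsets, and 0 to 1 with 1 library left out; the members that rose numbered 2 to 5 then, with 5 without YAP5SA replicate 1. With the replicate block, 4 members were higher, Ccne2 being added (adjusted p = 0.028), and 0 lower. Among the other genes the block brought Kif18a (0.048) and E2f5 (0.049) past the threshold and lost Orc2 (0.05), Anln (0.05), Dlgap5 (0.059) and Rbl1 (0.066); and it added the mesenchyme marker Pdgfra (0.016); it changed no other call of the members, the other cell-cycle genes or the markers. Further replication genes lower numbered 1 under upper-quartile factors, DESeq2 and the density-dependent offsets. Further mitosis genes higher numbered 1 to 4 with 1 library left out, and 1 without YAP5SA replicate 3 or wild type replicate 3. Regulators higher numbered 5 in the FPKM fits with a pseudocount of 1 or 0.1; regulators lower numbered 1 under RLE factors, DESeq2, no filter and the replicate block, 0 in the 3 FPKM fits, and 0 to 1 with 1 library left out. On the gene strand alone, GGAATG was in 0% of mitosis and 0% of G1 entry promoters, CCAAT was in 35.7% of replication promoters and 21.1% of all, and E2F words were in 13.3% of mitosis promoters and 4.24% of all. The causes were not tested. Changes smaller than about the intervals given could not be resolved with 4 libraries per genotype. Counts in the densest class followed library size with a median slope of 0.47, which leans on YAP5SA replicate 1, the deepest library.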
